A study of Mus musculus with 10 samples.

Results

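The H3K27me3 landscape of ex14D-Ezh2 mouse embryonic stem (ES) cells was described from 3 of the 10 libraries of the study, 2 H3K27me3 ChIP libraries and 1 input library of the same genotype. E14 ES cells, a line derived from 129 strain embryos and labelled with strain 12910la, carried a CRISPR-Cas9 in/del mutation in exon 14 of Ezh2 that shifts the reading frame of the isoform with this exon and leaves the isoform without it (ex14D-Ezh2) intact. GEO's labels call the genotype a knock out of exon 14 of Ezh2, and the sample titles call it Ezh2KO. The study also used separate Ezh2 knockout ES cells, from which the titles alone would not tell these libraries apart. Unedited E14 cells, labelled wild-type and called control here, gave 2 H3K27me3 libraries and 1 input of their own, and both genotypes also have 2 EZH2 ChIP libraries. No treatment or time point is named for any of these libraries. The sources do not say how many edited clones were used, whether the 2 libraries came from separate cultures, or whether the single input was taken from the same culture as either of them, so the spread between the 2 libraries may be technical. The names of the deposited files give the 2 ChIP libraries different line or sample tags, of which the input shares that of replicate 1, and their meaning is not explained. If they stand for separate edited lines, the spread also holds the difference between lines, and replicate 2 is set against the input of another line. No RNA was measured here, so neither the cell type nor the loss of exon 14 could be checked in these files.

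Trimethylation of lysine 27 on histone H3 is deposited by Polycomb repressive complex 2 (PRC2), whose catalytic subunit is EZH2 or its relative EZH1, working with EED and SUZ12. In ES cells the mark is known to cover promoters of silent developmental regulators, mostly at CpG islands, where it often lies beside active marks and is thought to hold lineage genes off until differentiation. Promoters of active housekeeping genes and of CpG-poor tissue-restricted genes usually lack it.

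A promoter was the 1 kb window centred on the 5′ most transcription start site, in which the authors counted reads. Reads were divided by the promoter total of their library and brought to a common scale (CPM) over the 24500 promoters, and enrichment was log2 of (ChIP CPM + 1) over (input CPM + 1), computed for each ChIP library. A promoter was called marked when both libraries reached 2-fold over input. By this rule 2240 of 24500 promoters (9.14%) were marked in ex14D cells, against 2776 (11.3%) by the same rule in control cells. Taken by itself, replicate 1 reached the threshold at 2591 promoters and replicate 2 at 2345, and 456 promoters did so in one library but not in the other.

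Sequence directly upstream of the start site is shown for 6 promoters, 2 strongly marked, 1 just past the threshold, 1 marked in control only, and 2 without the mark. Each line gives the 200 bases before the start site, 5′ to 3′ on the gene's own strand, from RefSeq promoters of build GRCm38.p6, with CG dinucleotides in capitals, and none of these stretches overlaps a RefSeq exon.
Pou3f3, the most enriched promoter with at least 3 input reads, chr1:42695568-42695767, plus strand: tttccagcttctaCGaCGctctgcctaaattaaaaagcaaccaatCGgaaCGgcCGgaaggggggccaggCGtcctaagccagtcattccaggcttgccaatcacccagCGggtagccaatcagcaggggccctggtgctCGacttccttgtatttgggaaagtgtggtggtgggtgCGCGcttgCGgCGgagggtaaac
Nkx2-2, strongly marked, chr2:147186403-147186602, minus strand: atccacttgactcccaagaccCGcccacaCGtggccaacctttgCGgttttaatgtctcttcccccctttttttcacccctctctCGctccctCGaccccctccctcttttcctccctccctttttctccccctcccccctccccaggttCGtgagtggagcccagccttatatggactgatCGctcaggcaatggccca
Dazl, marked in ex14D but in no control library and without an EZH2 domain, chr17:50293621-50293820, minus strand: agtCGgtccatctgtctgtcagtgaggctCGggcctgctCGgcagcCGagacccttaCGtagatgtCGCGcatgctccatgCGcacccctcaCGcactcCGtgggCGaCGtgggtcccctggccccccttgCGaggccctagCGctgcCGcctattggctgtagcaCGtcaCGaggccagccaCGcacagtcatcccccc
2700081O15Rik, marked in control but not in ex14D, chr19:7417425-7417624, plus strand: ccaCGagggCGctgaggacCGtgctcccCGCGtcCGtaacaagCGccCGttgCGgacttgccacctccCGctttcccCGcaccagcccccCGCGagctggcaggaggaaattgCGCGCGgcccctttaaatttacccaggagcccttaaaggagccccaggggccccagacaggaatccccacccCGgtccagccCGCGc
Rpl27, an active ribosomal protein gene without the mark, chr11:101442045-101442244, plus strand: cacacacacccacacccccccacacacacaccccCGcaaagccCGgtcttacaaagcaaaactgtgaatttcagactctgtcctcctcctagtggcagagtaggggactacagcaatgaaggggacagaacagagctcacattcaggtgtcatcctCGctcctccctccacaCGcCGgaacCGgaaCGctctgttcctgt
Olfr868, a silent olfactory receptor gene without the mark, chr9:20098426-20098625, plus strand: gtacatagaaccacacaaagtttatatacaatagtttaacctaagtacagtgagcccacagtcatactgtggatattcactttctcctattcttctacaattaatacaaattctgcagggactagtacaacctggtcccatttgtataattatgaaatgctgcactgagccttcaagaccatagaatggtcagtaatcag
These stretches hold 12, 7, 18, 19, 7 and 0 CG dinucleotides in the order shown, and the strongly marked Nkx2-2 and the unmarked Rpl27 held the same number. At least 10 CG dinucleotides stood in this window at 71.5% of the 1577 marked promoters that matched the table by symbol and at 44.0% of the others, against 46.4% of all 18192 matched promoters. CG reads the same on both strands.

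Depth and background were as follows. The ex14D libraries held 1450937 and 1248018 reads on promoters, which were 7.58% and 6.86% of their counted reads, and the ex14D input held 416778, or 1.92%. The control ChIP libraries were shallower, with 594289 and 937207 promoter reads, or 5.65% and 5.98% of their counted reads. Of all promoter reads in the ex14D ChIP libraries, 69.0% and 70.9% fell on the marked promoters, against 9.28% in the input. In the control ChIP libraries 56.8% and 54.6% fell on these same promoters, which were chosen in ex14D. The ChIP signal over background thus differed between the genotypes, and whether the mark or the ChIP itself differed was not tested. Because a library's promoter reads always sum to the same total after scaling, reads concentrated on marked promoters push the rest below input. In the ex14D libraries the median promoter stood at -1.92 and -1.84 on the log2 scale. When reads outside promoters were included in the library size the mean of these medians moved to -0.05, and 3421 promoters were then called marked. TMM scaling factors placed it at 0.02 and called 5105. No spike-in values are used here, so a change of the mark by the same factor everywhere would not be seen on any of these scales. Below input and above or below control therefore refer to the share of promoter reads within a library, not to the amount of the mark per cell, which these files do not give.

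The 2 ex14D libraries gave nearly the same ranking of promoters. Pearson's r of the enrichment values, across 24500 promoters of 2 libraries that share 1 input, was 0.93, and it was 0.98 over the marked promoters. The median absolute gap between replicates at a marked promoter was 0.16 log2 units, and 11 marked promoters differed by more than 1 unit. Replicate 2 had the wider range of the pair. Among the 631 promoters with at least 8-fold enrichment in both libraries it was the higher one at 410, whereas among the 940 promoters between 2-fold and 4-fold it was higher at 213.

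**Figure D1:**
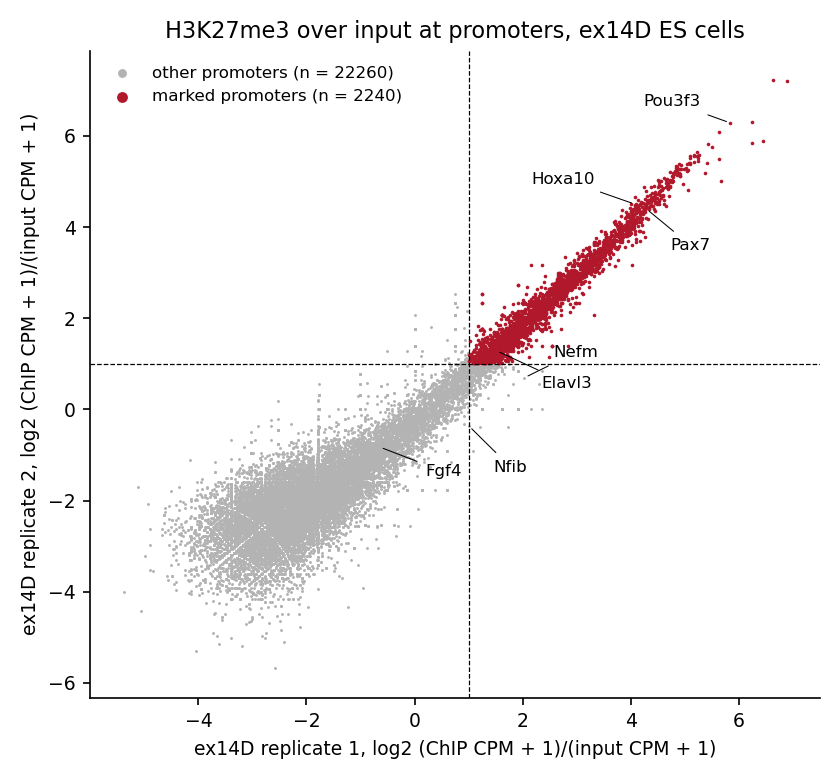
Enrichment of every counted promoter in ex14D replicate 1 (horizontal axis) and replicate 2 (vertical axis), log2 of (ChIP CPM + 1)/(input CPM + 1), with 1 point per promoter, red for the 2240 marked and grey for the unmarked, and dashed lines at 2-fold. Points follow 1 diagonal band with its bulk below 0, and Nefm and Nfib lie below it with a higher value in replicate 1.

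Enrichment in ex14D cells reached high values. At least 4-fold enrichment in both libraries was found at 1300 promoters, at least 8-fold at 631 and at least 16-fold at 222, and the control libraries had 1394, 407 and 40 promoters at these levels. The median marked promoter stood at 2.40 in replicate 1 and 2.29 in replicate 2. The edgeR quasi-likelihood test, fitted over 21261 promoters with the 6 H3K27me3 and input libraries sharing one spread, called 2406 promoters (11.3%) higher in ex14D ChIP than in ex14D input and 15656 lower at a Benjamini-Hochberg adjusted p under 0.05. With TMM factors the same test called 4450 higher and 1292 lower, so the lower calls depend on the scaling. Of the marked promoters that were tested, 2140 of 2170 were among the higher calls, which use the same reads as the rule.

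The most enriched promoters belonged to transcription factor genes of the nervous system and of the body axis. Pou3f3, a POU domain factor of the developing brain, had 11 reads in input and 2282 and 2660 reads in the 2 ChIP libraries, or 26.4, 1573 and 2131 CPM. This is an enrichment of 5.84 and 6.28, the highest among promoters with at least 3 input reads. Hoxb9, a Hox gene of the trunk, followed at 5.51 and 5.75, and Hoxd10 of the limb and posterior spinal cord at 5.42 and 5.82. Nkx2-2, which specifies ventral neural progenitors, stood at 5.25 and 5.52. Lhx2 of the forebrain stood at 5.16 and 5.55, and Uncx of the somites at 5.22 and 5.65. The other 4 of this list of 10 were Hoxb5, the antisense transcript Hottip of the HoxA cluster, the predicted gene Gm11762, and Slc9a2, which encodes a sodium-proton exchanger and stood at 5.26 and 5.57. In each of the 10 both ex14D values lay above both control values, which choosing the highest ex14D promoters favours, and each had an EZH2 domain in all 4 EZH2 libraries.

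Some higher ratios rested on an empty input. At 96 marked promoters the input had 0 reads, and 79 of these windows overlap the window of another counted gene, where the counting program gives reads to neither gene. The top of the unrestricted ranking held 7 of them, 9530036O11Rik, Pcdh10, Irf2, Gm12339, Mir1900, Shh and Dio3os. Against a floor of 3 input reads (7.20 CPM), Shh, the Sonic hedgehog ligand, was at least 6.80-fold and at least 9.24-fold enriched in the 2 libraries, with 71 and 83 reads. Pcdh10, a protocadherin of neurons, was at least 13.7-fold and at least 20.6-fold enriched, with 143 and 185 reads. Shh and 9530036O11Rik share one window region.

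Of 13 genes that the study names for ES cells, 9 were marked, against 9.14% of all promoters. The study took Hoxa10, Hoxd9, Bmp6, Pax7, Elavl3, Shc3 and Runx2 as genes that carry the mark, which favours a call there. It followed Fgf4, Utf1 and Nphs1 under retinoic acid treatment. T, Eomes and Mixl1 were followed for expression after withdrawal of leukemia inhibitory factor. Hoxa10, a Hox gene of the posterior body, had 29 input reads and 1741 and 1987 ChIP reads, with an enrichment of 4.09 and 4.50. Hoxd9 stood at 5.10 and 5.39, Bmp6, a bone morphogenetic protein ligand, at 4.08 and 4.46, and Pax7, a regulator of muscle progenitors, at 4.28 and 4.41. Shc3, a neuronal adaptor protein gene, stood at 3.57 and 3.70. As shares of promoter reads over input, both ex14D libraries were above both control libraries for Hoxa10, Hoxd9, Pax7 and Shc3, and the groups overlapped for Bmp6, which stood at 4.36 and 3.87 in control. With the control input the ex14D mean of Bmp6 moved from 4.27 to 5.03. The direct test described below, which uses no input, called Bmp6 higher in ex14D with TMM factors. The mesoderm regulators T (3.50 and 3.57) and Eomes (3.27 and 3.39) were marked too, and Mixl1 less so (1.55 and 1.37, against 2.62 and 2.56 in control). Elavl3, an RNA-binding protein gene of neurons, had 16 input reads and 161 and 119 ChIP reads, an enrichment of 1.51 and 1.29 against 2.39 and 1.75 in control. Its call was lost with the control input (mean 0.69) and with both inputs summed (1.00). The promoters of the pluripotency genes Fgf4 and Utf1 and of the kidney gene Nphs1 were below input in both ex14D libraries. Fgf4 had a mean of -0.74, which turned to 0.68 with all counted reads and to 1.32 with TMM factors, past 2-fold, and Utf1 turned from -1.75 to 0.04 and 0.28. Runx2, a regulator of bone formation, was at -3.15 and -1.79 in the window placed at chr17:44814297-44815296, on 5 and 13 reads.

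Developmental transcription factors carried the mark in most families. Over 14 families listed by name, 219 of 284 promoters (77.1%) were marked, against 9.14% of all promoters. The 39 Hox cluster genes were all marked, from Hoxc13 at 2.46 and 2.27 to Hoxb9, with family medians of 4.37 and 4.71. The 6 Iroquois genes and the 9 Dlx and Msx genes, homeobox factors of the neural plate, limb and branchial arches, were also all marked. So were 54 of 55 other homeobox genes, among them Cdx2 of the trophectoderm and gut (4.91 and 5.12) and Otx2 of the anterior brain (4.37 and 4.62), the exception being Meox1 at -0.43 and -0.48. Among LIM homeobox genes 11 of 12 were marked, with Lhx3 just short at 0.87 and 0.57. Among Nkx genes 11 of 14 and among Gata genes 5 of 6 were marked, with the red cell factor Gata1 unmarked at -0.69 and -1.61. Of 9 Pax genes 7 were marked, and Pax8 (0.83 and 0.46) and Pax4 (-0.95 and -1.60) were not.

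Other families were split. Of 19 Sox genes 12 were marked, including Sox1, Sox9 and Sox17, while Sox2, a core pluripotency factor, stood at -3.11 and -2.43. Of 17 T-box genes 12 were marked, and Tbx6, Tbx10, Tbx19, Tbx22 and Mga were not. Of 44 Forkhead genes 21 were marked, with values from 5.09 for Foxd2 to -3.21 for Foxr2 as means of the 2 libraries. Of 37 neural and mesodermal basic helix-loop-helix genes 23 were marked, led by Olig2 of oligodendrocyte and motor neuron progenitors (4.91 and 5.13), and Neurod4 was lowest (-3.19 and -2.02). Zic1 of the neural plate stood at 3.79 and 4.01. Of 6 sine oculis homeobox genes 3 were marked, Six2, Six3 and Six6.

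**Figure D2:**
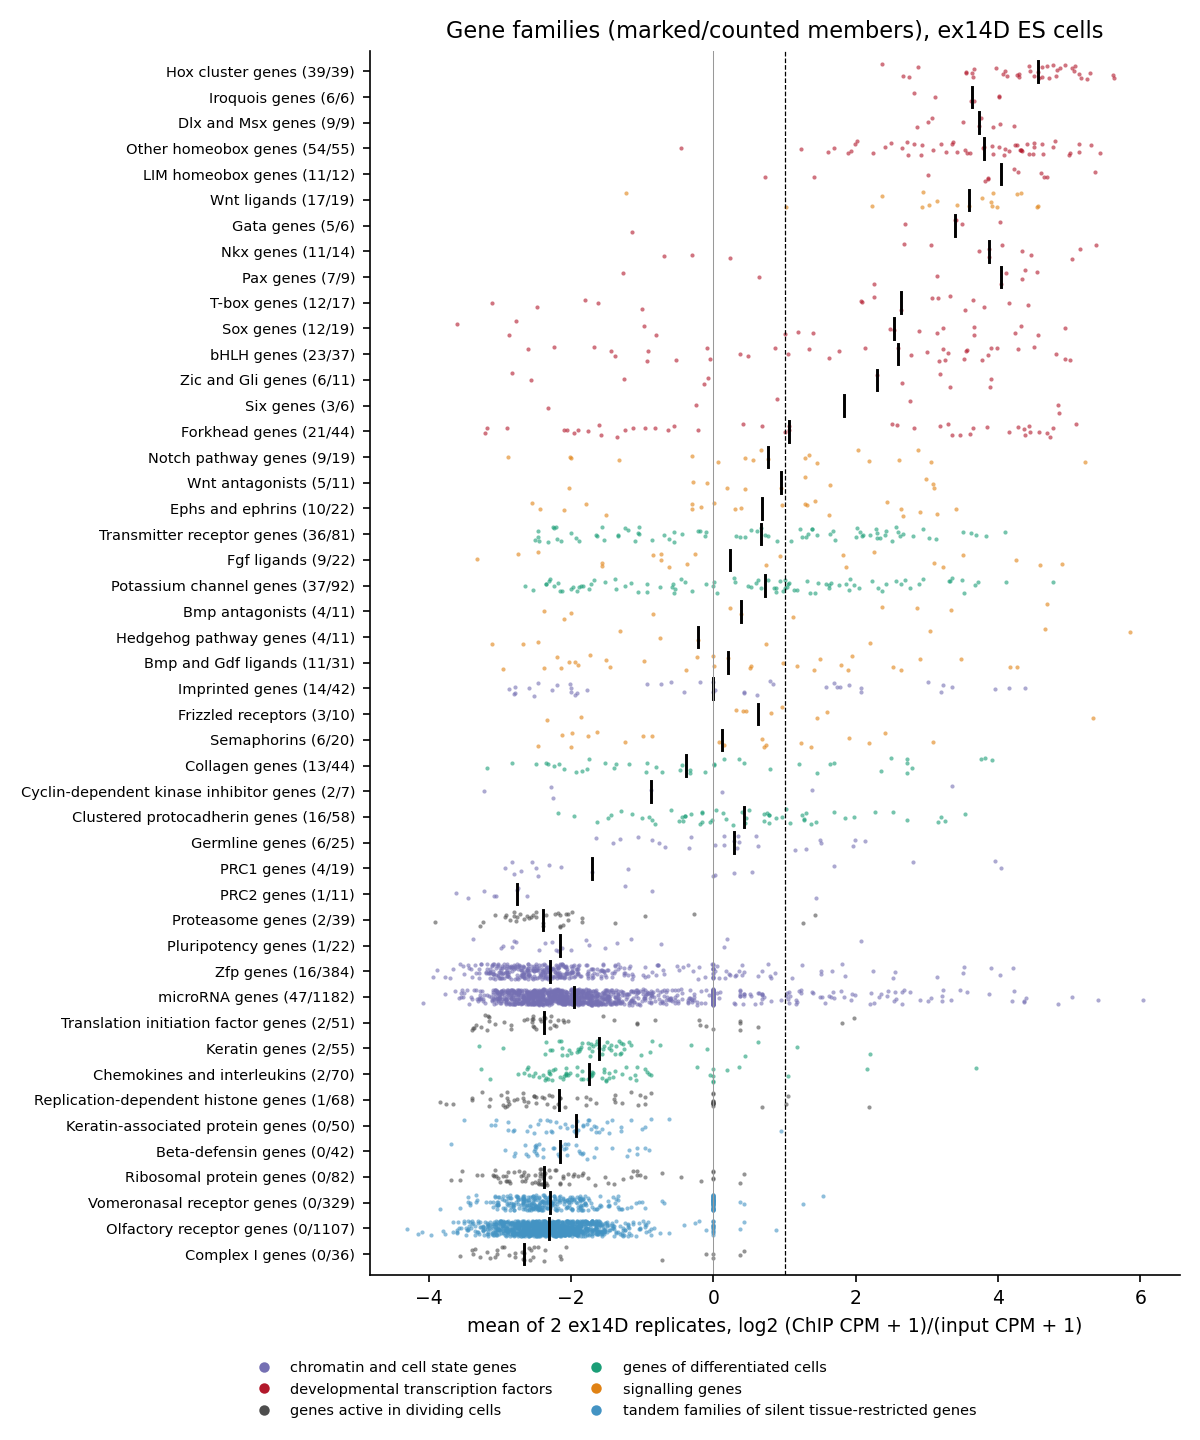
Mean enrichment of the 2 ex14D replicates for each member (points, coloured by gene class) of 47 gene families, with the family median (black bar), 2-fold (dashed line) and input level (grey line), and marked over counted members in the labels. Hox, Iroquois and Dlx and Msx genes lie wholly above 2-fold, Forkhead genes range from 5.09 to -3.21, and the medians of olfactory receptor, vomeronasal receptor and ribosomal protein genes lie below input.

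Of 176 counted promoters of signalling genes 78 (44.3%) were marked. Wnt ligands had the highest share of the 10 families, with 17 of 19 marked, from Wnt1 (4.48 and 4.65), a midbrain organizer signal, to the unmarked Wnt16 (1.00 and 1.05) and Wnt8b (-0.78 and -1.67). Of the 10 Frizzled genes, which encode receptors of these ligands, 3 passed the rule, Fzd1, Fzd3 and Fzd10, and Fzd10 had 0 input reads (at least 6.89-fold and at least 4.34-fold). Fzd8 stood at 0.53 and 0.12 and Fzd9 at 1.14 and 0.78, and 7 of the 10 were marked in control. Without replicate 2 the ex14D count was 5, and with all counted reads or with TMM factors it was 8, so the Frizzled count depends on both. Fgf ligands were marked at 9 of 22 promoters, highest at Fgf9 (4.76 and 5.02), and Bmp and growth differentiation factor genes at 11 of 31, highest at Bmp6, with the ES cell ligand Nodal at -3.34 and -2.58. In the Hedgehog pathway the 3 ligands Shh, Ihh and Dhh and the receptor Ptch1 were marked and the other 7 members were not. Of Notch pathway genes 9 of 19 were marked, including the ligands Dll1 (2.88 and 2.86) and Dll4 (5.05 and 5.39, on 3 input reads), while none of the 4 Notch receptor genes was and the target Hes1 stood at -3.47 and -2.29.

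Genes of differentiated cells took an intermediate place, with 106 of 400 promoters (26.5%) marked. Potassium channel genes were marked at 37 of 92 promoters, led by Kcnk9 (4.55 and 5.01), and receptor genes for GABA, glutamate, acetylcholine and serotonin at 36 of 81, led by Grm8 (4.10 and 4.10). Collagen genes were marked at 13 of 44, with the cartilage collagen Col2a1 highest (3.88 and 3.95), and clustered protocadherins at 16 of 58. Only 2 of 55 keratin genes were marked, Krt18 of simple epithelia (2.27 and 2.14) and Krt87 (1.17 and 1.18), and only 2 of 70 chemokine and interleukin genes, Cxcl12 (3.67 and 3.72) and Cxcl14 (2.23 and 2.08).

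Silent genes in tandem arrays did not pass the rule. None of 1107 olfactory receptor genes, 329 vomeronasal receptor genes, 42 beta-defensin genes and 50 keratin-associated protein genes was marked, against 9.14% of all promoters. Input reads were 0 at 55 of the 329 vomeronasal receptor promoters, against 1273 of all 24500. Only 250 of these 329 had enough reads for the test of ChIP over input, so low counts limit the calls in this family. Median enrichment of the olfactory receptor genes was -2.43 and -2.17, and their CpG observed/expected ratio had a median of 0.14. With TMM factors 7 olfactory receptor, 2 vomeronasal receptor and 3 keratin-associated protein genes passed 2-fold, and with replicate 2 alone 2 vomeronasal receptor genes did. Genes active in dividing cells were as low. No ribosomal protein gene (82) and no complex I gene (36) was marked, although ribosomal protein windows had a median CpG ratio of 0.81. The exceptions in this class were the immunoproteasome genes Psmb8 (1.48 and 1.38) and Psmb9 (1.32 and 1.19, on 4 input reads), the initiation factor genes Eif5a2 (1.91 and 2.03) and Eif4e3, and Hist1h2ba, a testis histone gene.

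The share of marked promoters was 4.55% for pluripotency genes and 9.09% for PRC2 genes, against 9.14% of all promoters. Neither small family thus stood clearly apart from promoters in general. Of 22 pluripotency genes only Tbx3 was marked (2.22 and 1.92), while Nanog (-2.31 and -1.94) and Pou5f1 (-3.21 and -2.71) were below input. Of 11 PRC2 genes only Phf19, a Polycomb-like accessory subunit, was marked (1.64 and 1.26), and Ezh2 itself stood at -2.90 and -2.34. Of 19 PRC1 genes 4 were marked, among them Cbx8 (3.95 and 4.13), Bmi1 (2.71 and 2.89) and Yaf2 (1.51 and 1.89). Among cyclin-dependent kinase inhibitors Cdkn1c (3.41 and 3.30) and Cdkn2a (1.68 and 1.09) were marked and the other 5 were not, and Cdkn2a lost the call with a pseudocount of 5 CPM, with the control input and with both inputs summed. Imprinted genes, expressed from 1 parental allele, were marked at 14 of 42 promoters, with Grb10, a growth regulator, highest (4.21 and 4.54) and Kcnq1ot1, a long noncoding RNA of an imprinted cluster, lowest (-3.17 and -2.58). Reads do not tell the alleles apart. Germline genes were marked at 6 of 25 promoters, from Ddx4 (2.19 and 2.06) to Dazl (1.31 and 1.30), and at 16 with all counted reads and 19 with TMM factors.

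Marked promoters were richer in CpG than the others. The 2232 marked promoters placed on GRCm38 had a median CpG observed/expected ratio of 0.71 and 62.5% G+C, against 0.48 and 54.0% for the other 22134. Of promoters with a ratio under 0.2 only 30 of 5293 were marked (0.567%, 95% exact binomial interval 0.383 to 0.808%). The share was 16.9% (15.9 to 17.8%) between 0.6 and 0.8 and 12.8% (11.9 to 13.8%) at 0.8 and over. Control cells had a higher share in each of the 5 classes and the same order, with promoter reads as library size in both genotypes. These intervals cover counting error over promoters of the same libraries, not the spread between cultures.

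**Figure D3:**
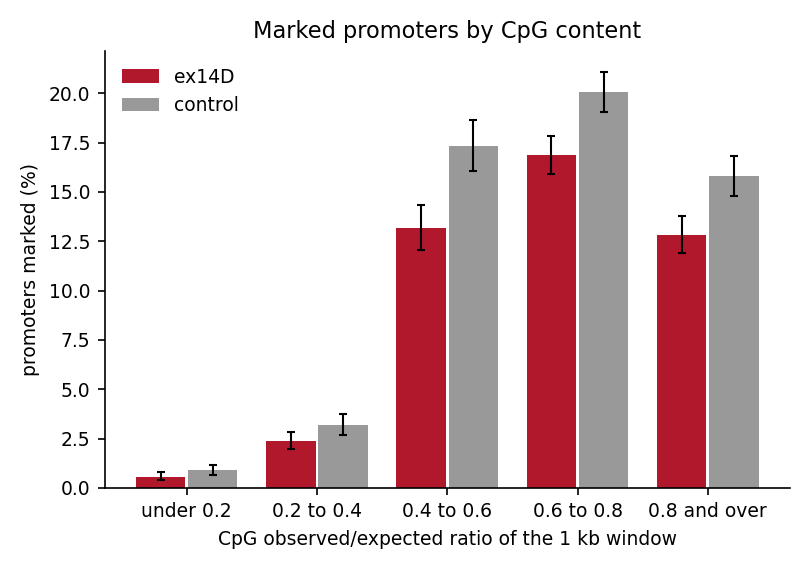
Share of promoters marked (vertical axis, percent) in 5 classes of the CpG observed/expected ratio of the 1 kb window, in ex14D (red) and control cells (grey), with 95% exact binomial intervals over promoters. Shares are under 4% in the 2 lowest classes of both genotypes and highest between 0.6 and 0.8.

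EZH2 domains from separate ChIP libraries lay over most marked promoters. An EZH2 domain called by the authors in both ex14D EZH2 libraries overlapped 1917 of 2232 placed marked promoters (85.9%, 95% exact binomial interval 84.4 to 87.3%) and 621 of 22134 others (2.81%, 2.59 to 3.03%). Among marked promoters the share was higher at higher enrichment, from 71.8% of the 940 between 2-fold and 4-fold to 93.7% between 4-fold and 8-fold, 98.0% between 8-fold and 16-fold and 99.5% at 16-fold and over. Control EZH2 domains in both libraries overlapped 2124 of the marked promoters (95.2%) and 1966 of the 22134 others (8.88%). At 207 marked promoters the domain was called in both control libraries but not in both ex14D libraries, and these had medians of 1.60 and 1.43 for the mark, against 2.58 and 2.47 at the 1917 promoters with a domain in both ex14D libraries. Domains were called per library, so a domain that is missing may lie just under the authors' threshold.

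With promoter reads as library size, fewer promoters passed the rule in ex14D cells than in control, but more of them reached 8-fold. The ex14D libraries were the deeper ones. The control was not recounted under the other scalings, where ex14D had 3421 (all counted reads) and 5105 (TMM factors). The lists below therefore hold for this scaling only. Both genotypes marked 2003 promoters, which is 89.4% of the ex14D list and 72.2% of the control list. The 237 promoters marked only in ex14D had a median of 1.57 in ex14D and 0.83 in control, and 99 of them were under 2-fold in both control libraries. The 5 highest of these 99 in ex14D were Pcdha4, Gm2897, Otud7a, Gjd2 and Col4a2, which had 0 or 1 reads in the ex14D input and 8 to 46 reads in the ChIP libraries, so that Gjd2, with 9 and 8 reads, was not above a floor of 3 input reads. The 773 marked only in control had 0.50 and 1.56, and 585 of them were under 2-fold in both ex14D libraries. Among the 237 with at least 3 input reads were Jpx, a noncoding RNA gene of the X inactivation centre (2.18 and 2.38, against 0.72 and 0.76 in control), and Igf2r, an imprinted growth factor receptor gene (2.11 and 2.05, against 0.53 and 0.99). Igf2r was also marked with the control input in place of the ex14D input. Among the 773 were Pbx3, a homeobox cofactor gene (-2.08 and -1.66, against 1.37 and 1.03), and Gfod1 (-0.92 and -1.81, against 3.01 and 1.83). These promoters were chosen for the difference, so their values are a description.

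A direct test of ex14D against control H3K27me3 with edgeR's quasi-likelihood fit and TMM factors called 867 of 14883 promoters higher (5.83%) and 483 lower (3.25%). Gene-row library sizes gave 398 and 2130, and all counted reads 618 and 581, so the split between directions depends on the scaling. Leaving out control replicate 2 left 183 higher and 55 lower, leaving out ex14D replicate 1 left 474 and 158, and leaving out ex14D replicate 2 left 429 and 105. In the transcription factor families, listed by name, 179 of 271 tested promoters rose and 5 fell, with a median log2 change of 1.04 against -0.03 over all promoters. On gene-row library sizes, which shift the median of all promoters to -0.47, 142 rose and 12 fell, and on all counted reads, which shift it to -0.16, 165 rose and 5 fell. Hox genes rose at 36 of 39 promoters under each of the 3 scalings. Relative to the other promoters of the same libraries, Hoxd9 rose by 1.81 (SE 0.21, edgeR adjusted p 1.81e-06) and Six3 by 1.83 (SE 0.21, edgeR adjusted p 1.81e-06). Among those that fell were Sox13, Foxo1, Scx and Gli1. Among Forkhead genes 20 of 37 tested promoters rose and 1 fell, although the family median over input was 1.18 and 1.15 in ex14D against 1.68 and 2.07 in control.

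Other classes moved less. Of 171 tested signalling promoters 29 rose and 9 fell (15 and 25 on gene-row library sizes), and the median change was 0.15. Of 377 promoters of differentiated-cell genes 31 rose and 15 fell (8 and 65), with a median of -0.06. The split between rises and falls therefore turned with the scaling in both classes. Among Frizzled receptors none of 9 tested rose and Fzd8 fell (-0.98, SE 0.26, edgeR adjusted p 0.0155). Elavl3 fell as well (-0.97, SE 0.24, edgeR adjusted p 0.00789). Klf2 and Klf4, pluripotency factors, fell by 2.30 and 0.88 (SE 0.53 and 0.28, edgeR adjusted p 0.00461 and 0.0433), although the Klf2 values of the 2 control libraries were 1.90 and -0.49. Cdkn2c, a cell cycle inhibitor, fell by 2.10 (SE 0.30, edgeR adjusted p 2.12e-05), with -0.49 and -1.25 in ex14D against 2.22 and 1.84. Imprinted genes rose at 10 of 29 tested promoters and none fell (3 and 1 on gene-row library sizes), and Dazl rose by 1.61 (SE 0.31, edgeR adjusted p 0.000792), with both ex14D values above both control values (-0.09 and 0.12).

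**Figure D4:**
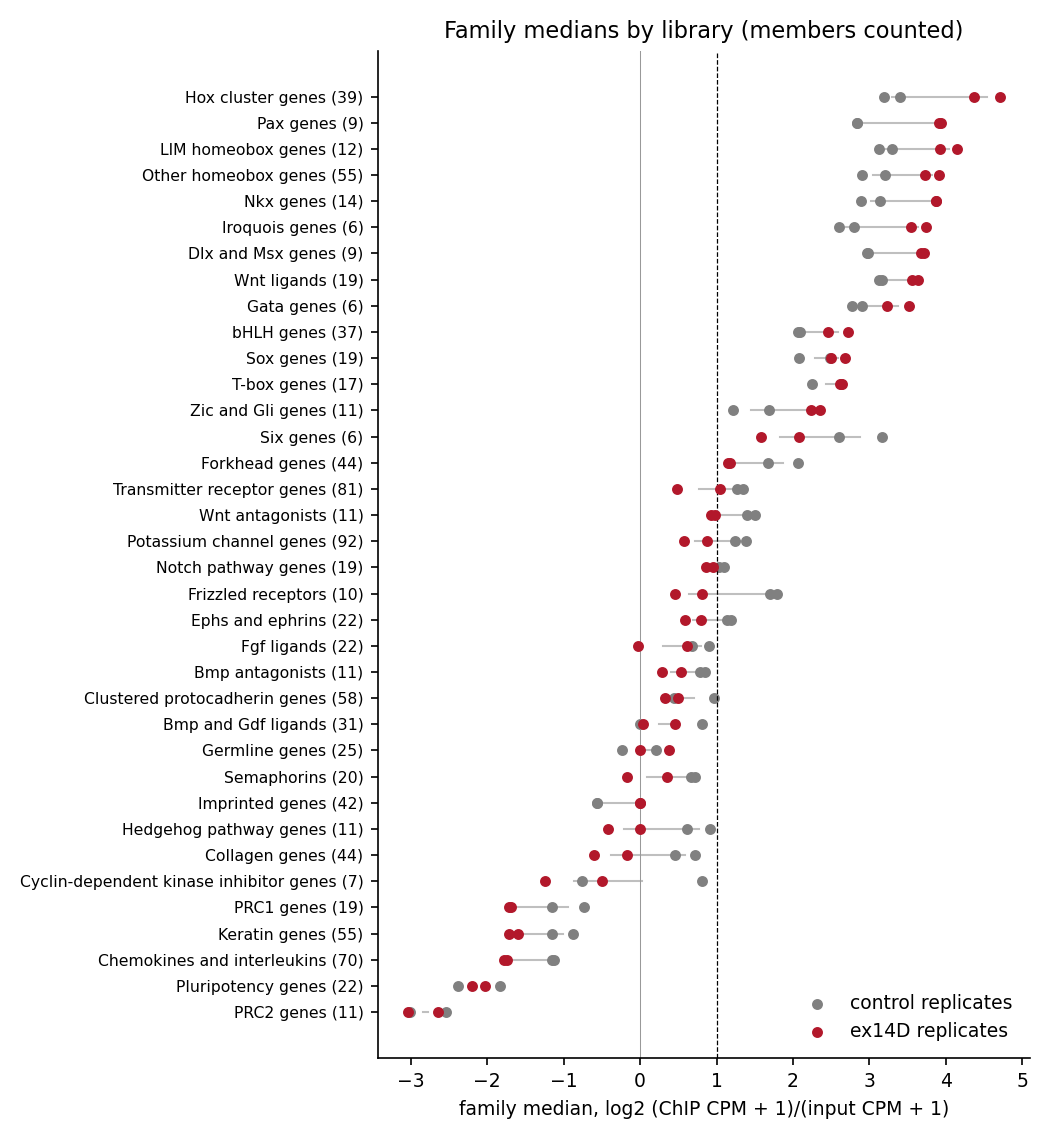
Median enrichment of each family over its own input in the 2 ex14D libraries (red points) and the 2 control libraries (grey points). Values are log2 of (ChIP CPM + 1)/(input CPM + 1) with library sizes on gene rows, and a line joins the genotype means. Families of up to 100 members are shown, without the classes of genes active in dividing cells and of silent genes in tandem arrays. Red points lie to the right of grey ones for Hox, Pax, LIM, Nkx and Wnt genes and to the left for Forkhead and Frizzled genes.

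The same contrast grouped by EZH2 domains, which come from libraries the test does not use, gave the following counts. Of 2479 tested promoters with a domain in both libraries of both genotypes, 769 rose and 74 fell, and on gene-row library sizes 375 rose and 286 fell. Of 1472 with a domain in both control libraries but not in both ex14D libraries, 21 rose and 156 fell (4 and 481). Of 9717 with no domain in any of the 4 EZH2 libraries, 59 rose and 148 fell (15 and 999). The medians relative to all promoters were 0.42, -0.21 and -0.03.

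The largest single changes passing the test stood at promoters with few reads. The 5 largest rises, Snhg15, Dnajc9, Tmco1, Larp1 and Isoc2b, had 13 to 19 reads in each ex14D library and lay below input in both genotypes. The 5 largest falls were Gjc1, Rfx2, Hs2st1, Sall1 and Kdm1b. Sall1, a zinc finger factor of kidney and limb, stood at -1.48 and -2.08 in ex14D and at 2.78 and -0.06 in the control libraries, which thus disagreed on the mark.

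A few promoters differed between the 2 ex14D libraries. Among those with at least 30 reads in each, the largest gaps were at Nfib (1.00 and -0.36), A230070E04Rik (2.49 and 1.15), Nefm (2.03 and 0.69), Tubb4a (-0.49 and -1.71) and Nectin1 (0.61 and -0.57). Replicate 1 was higher at each of these 5. Nfib encodes a nuclear factor of lung and brain and Nefm a neurofilament subunit. Just inside the threshold lay Dtx4 (1.00 and 1.19), Mab21l2 (1.31 and 1.01) and Mfsd4b2 (1.17 and 1.01), and just outside it Spock2 (1.74 and 1.00), Rasip1 (1.28 and 1.00) and Alox12 (1.17 and 1.00).

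Broad peaks were deposited for each library, and the ex14D libraries had 14441 and 9465. They covered 47.1 and 32.6 Mb, with median widths of 1904 and 2173 bp and a widest peak of 148600 and 135193 bp. Of the replicate 2 peaks 94.9% overlapped a replicate 1 peak by at least 1 bp, and of the replicate 1 peaks 58.2% overlapped one of replicate 2. The 6039 peaks of replicate 1 alone had a median width of 905 bp, against 3484 bp for those it shared. Merging overlapping peaks gave 8313 regions present in both libraries, 41.7 Mb in all. Peaks and marked promoters come from the same ChIP libraries, so an overlap between them is no separate support for the rule. A shared peak overlapped 2157 of the 2232 placed marked promoters (96.6%) and 1873 of the 22134 others (8.46%). Of the 75 marked promoters without one, 56 had fewer than 5 input reads. Slc30a3, a zinc transporter gene of neurons with 19 input reads and an enrichment of 4.08 and 4.15, had no peak at its RefSeq start site, so its counted window may lie elsewhere than where it was placed.

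Fold and q values in the peak files did not follow the promoter reads. Across the 3689 and 2955 peaks that hold a start site, Spearman's rho between the peak's fold column and promoter enrichment was 0.07 in both libraries, while that between peak width and enrichment was 0.64 and 0.66. The fold of 1 peak and of the next one along the chromosome had a rho of 0.84 in both libraries. The control files showed the same pattern, with 0.06 and 0.07 for fold and 0.65 and 0.63 for width. The fold and q columns are therefore not used here to rank regions, and peaks are described by position and width.

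Of the 8313 shared regions 723 were at least 10 kb wide and held 31.6% of the covered length. The widest, chr7:143354866-143505288, spans 150 kb with the start sites of Cdkn1c, Phlda2 and Slc22a18, neighbours in the imprinted Kcnq1 domain, of which Cdkn1c (3.41 and 3.30) and Phlda2 (2.15 and 2.00) were marked and Slc22a18 (0.08 and -0.03) was not. This region was 1 peak in replicate 1 but 12 separate peaks in replicate 2, which covered 126 kb, so its rank rests on replicate 1. The next 4 lay at the Hox clusters, HoxB at 137 kb, HoxC at 135 kb, HoxA at 129 kb and HoxD at 112 kb. They held 13, 12, 18 and 11 start sites, all of marked promoters. HoxB, HoxC and HoxA were 1 peak in each library, and HoxD was 1 peak in replicate 1 and 2 in replicate 2. The HoxD region also covered Evx2 but not the start site of Hoxd1, and Hoxb13 lay in a separate region of 45.1 kb. The region at Nkx1-1 (99.8 kb) and that at Lmx1b (92.0 kb) came next, with promoters at 4.86 and 5.22 and at 4.51 and 4.87. Each was 1 peak in replicate 1, and they were 4 and 3 peaks in replicate 2. The regions at ranks 8 and 10 held no start site of a counted promoter.

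**Figure D5:**
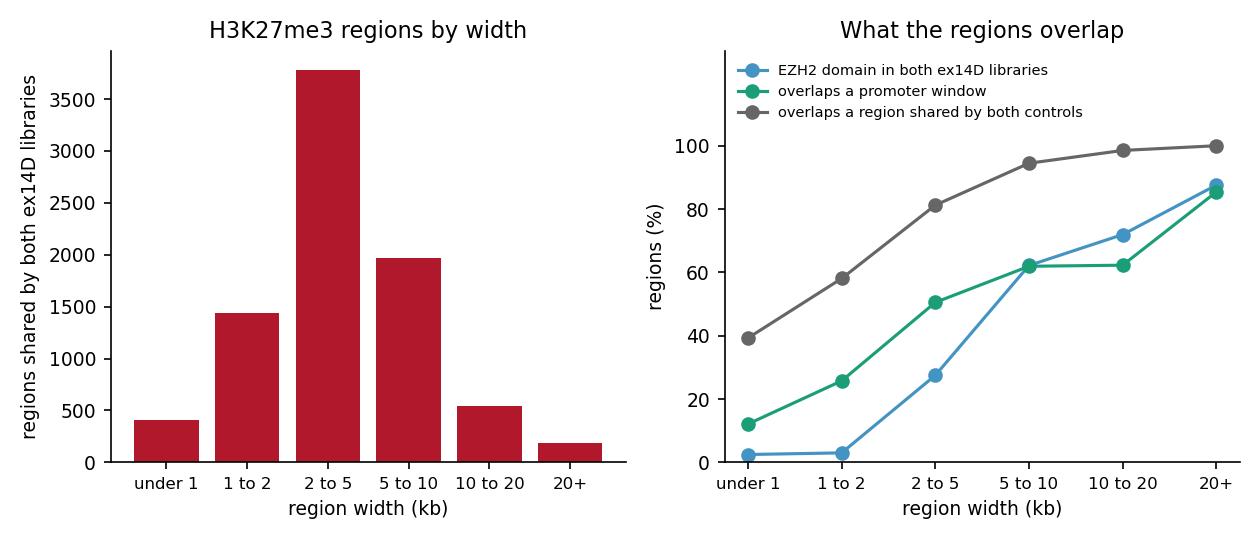
Number of regions shared by both ex14D H3K27me3 libraries by width in kb (left, bars) and the percent of them that overlap an EZH2 domain in both ex14D libraries, a counted promoter window, or a region shared by both control libraries (right, points joined by lines). All 3 shares are lowest under 1 kb and highest at 20 kb and over, where the EZH2 share is 87.6%, the promoter share 85.4%, and every region overlaps a control region.

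Narrow regions differed from wide ones in what they overlapped. An EZH2 domain in both ex14D libraries overlapped 2.88% of regions under 2 kb and 75.9% of those of 10 kb and over, although a wider region also has more room to overlap anything. A counted promoter window lay in 4040 regions (48.6%), a gene body without one in 2241 and neither in 2032 (24.4%). Regions with a promoter were wider, with a median of 4470 bp against 2901 bp in gene bodies and 2629 bp between genes, and 56.9% of them had an EZH2 domain against 17.8% and 8.27%. A region shared by both control libraries overlapped 79.9% of the ex14D regions, and 71.9% of the 8991 control regions overlapped one of ex14D. The 1675 ex14D regions without such a control region had a median width of 1983 bp, against 4176 bp for the rest.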

How the data were processed

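H3K27me3 ChIP libraries (2 for each genotype) and 1 input for each genotype of E14 mouse ES cells were used, and the EZH2 libraries of both genotypes only for their domains. The authors aligned reads to mm10 with Bowtie (Bowtie2 in the submitters' processing notes) and counted reads in a 1 kb promoter window with htseq-count, and they deposited raw read counts per gene. Versions are not given in the sources used here. Rows of reads with no single promoter, 91.97 to 97.96% no feature and 0.14 to 0.45% ambiguous, stayed out of library sizes and tests. The authors called broad peaks in each library with MACS2, and the deposited peak files hold fold enrichment as a ratio and p and q values as −log10. The EZH2 domain files, which the authors made with hiddenDomains, were used for positions only. The H3K27me3 domain files were not used, because 143 to 274 of their domains end beyond the chromosome.

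Enrichment was log2 of (ChIP CPM + 1)/(input CPM + 1), and marked meant at least 1 in both libraries. Start sites were taken from RefSeq GRCm38.p6 by symbol or synonym for 24366 of 24500 genes. Tests were edgeR 4.0.16 quasi-likelihood fits (R 4.3.3) with filterByExpr and Benjamini-Hochberg adjustment, over all 6 libraries with gene-row library sizes for ChIP over input, and over the 4 ChIP libraries with TMM factors for ex14D against control. On simulated data the first fit recovered 59.0% of 4-fold and 10.0% of 2-fold changes (19766 genes), the second 87.0% and 35.0% (14534 genes). Of their calls 5.48% and 2.4% were false. Changes were set only at promoters above the median CPM, so promoters with few reads were not covered. Counts were drawn from 1 profile pooled over the libraries of the fit, with 1 spread for all promoters, unlike the data. DESeq2 1.42.0 was an alternative. Intervals for shares are exact Clopper-Pearson, at 95%, and cover counting error only.

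Genes named were those the study followed, the 10 most enriched, the highest and lowest of each family (every member up to 12), the 5 largest rises and falls, the 5 largest replicate gaps, the 5 highest unmarked in control, the 3 on each side of the threshold, and genes in the 5 widest regions. The list of the most enriched promoters with at least 3 input reads, Jpx, Igf2r, Pbx3, Gfod1, Slc30a3, Klf2 and other single members of large families were chosen after their values were seen. The largest rises and falls were taken at an average log2 CPM of at least 3, with the same direction in every pair of libraries. The families and lists were chosen with earlier results of these data known. Single members of some families are not reported here.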

Additional observations from a re-analysis of the deposited data

How the results depend on the processing

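The number of marked promoters stayed between 2099 and 2350 with a pseudocount of 5 or 0.5 CPM, with a filter of 10 reads, with the control input and with both inputs summed. It was 3421 when library size was taken over all counted reads, 5105 with TMM factors and 1300 at 4-fold. With all counted reads 2141 of the 2240 promoters were kept, and with TMM factors all 2240 were, since this scaling adds promoters only. With the control input 2275 promoters were marked and 1999 were shared. Without replicate 1 or replicate 2 the count was 2345 or 2591. Marked promoters in all families together numbered 495, and 822 with TMM factors. With these factors 27 of 47 families moved by over 1.5 times or up from 0. Among them were clustered protocadherins (16 to 47), potassium channels (37 to 65) and keratins (2 to 9). Of 386 named genes none that was marked fell below input under any alternative, and with the control input 14 lost the call and 12 gained it.

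ChIP over input calls were 2406 higher and 15656 lower. TMM gave 4450 and 1292, all counted reads 4158 and 1469, and DESeq2 1901 and 8179. Leaving out a replicate gave 2090 to 2302 higher and 14641 to 14819 lower. For ex14D against control, 867 higher and 483 lower, gene-row library sizes gave 398 and 2130, all counted reads 618 and 581, DESeq2 823 and 202, and no filter 871 and 626. DESeq2 gave no adjusted p at 825 of 21261 promoters for ChIP over input and at 8656 of 14883 for ex14D against control. Leaving out 1 library gave 183 to 797 higher and 55 to 610 lower, lowest without control replicate 2, when the lone library of that group is assumed to vary like the others. The replicate numbers pair the samples only by number (correlation of their deviations -0.10), and the fit with the replicate block called 765 higher and 411 lower. The scaling shifts these counts by moving the median of all promoters, and the cause of the other differences was not tested.

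Shared peak regions numbered 8313, 5870 at −log10 q of at least 3, 8138 at an overlap of at least 0.5 of the shorter peak, and 9465 to 14441 with 1 library. At the stricter q, 43.8% of ex14D regions overlapped a control one, but the q column does not follow the reads. Input depth limits single promoters, with a median of 18 reads.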
